A study of Caenorhabditis elegans with 44 samples.

Results

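Small interfering RNA (siRNA) signals are amplified in *C. elegans* by RNA-dependent RNA polymerases (RdRPs), and 8 genes of this step are described here. They were taken by name, with earlier results of these data known. They are the RdRP genes *rrf-1* and *ego-1* and the genes *drh-3* and *ekl-1* for partners in the RdRP complexes. The others, *rde-10*, *rde-11*, *rde-12* and *rsd-2*, assist amplification. These are 8 of the 22013 genes in the N2 mRNA table and of the 22014 in the *otIs356* mRNA table, and 8 of 46926 and 46927 genes in the small RNA (sRNA) tables of the same backgrounds. All 8 were present in each of the 4 tables and passed the minimum count in each, which gave 128 pairs of a gene and a comparison over 16 comparisons.

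When RNA interference (RNAi) is triggered, an Argonaute carrying a primary siRNA marks an mRNA, and an RdRP then copies the marked mRNA into many short antisense RNAs, the secondary siRNAs. RRF-1 is known for this work in somatic tissues and EGO-1 in the germ line. DRH-3, a helicase related to Dicer, and EKL-1, a Tudor domain protein, belong to the complexes of both polymerases. RDE-10 and RDE-11 form a complex that is needed for amplification, RDE-12 is a DEAD-box helicase that acts with it, and RSD-2 is known for the response to small amounts of double-stranded RNA (dsRNA).

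The libraries were made from whole, synchronized first-stage larvae (L1) that had hatched without food, so each pools the tissues of many animals. In N2, the laboratory wild type, mRNA was sequenced from 2 *rrf-3(pk1426); pals-22(pig26)*, 3 *pals-22(pig26)*, 3 *rrf-3(pk1426)* and 2 wild-type (WT) libraries, and sRNA from 3 *pals-22(pig26)* and 3 WT libraries. In the second background every animal, WT included, carried *otIs356* [*rab-3p(prom1)::2xNLS::TagRFP*], a repetitive transgene that drives nuclear TagRFP in neurons, and mRNA and sRNA were each sequenced from 3 *vsra-1(tm1637); pals-22(pig26)*, 3 *pals-22(pig26)*, 4 *vsra-1(tm1637)* and 4 WT libraries. PALS-22 is a repressor of transgene silencing and of the response to intracellular pathogens, RRF-3 is an RdRP that makes endogenous primary siRNAs, and VSRA-1 is an Argonaute. Each mutation is a single allele, and *pig26* is a deletion that keeps the reading frame, so its mRNA can still be counted.

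Library totals were 36498609 to 61806727 for N2 mRNA, 5479218 to 33903511 for *otIs356* mRNA, 11483077 to 43362769 for N2 sRNA and 7950015 to 21594026 for *otIs356* sRNA. The shallowest mRNA library, at 5479218, was *vsra-1(tm1637); pals-22(pig26)* replicate 1. In N2, *rrf-3* mRNA stood at 1.65 to 1.79 CPM (counts per 1000000, with library totals adjusted by TMM, which centres the bulk of genes at no difference) in the double mutant and 1.91 to 1.99 CPM in *rrf-3(pk1426)*, against 5.46 to 6.29 CPM in WT, while *pals-22* mRNA stood at 45.4 to 51.5 CPM in *pals-22(pig26)* against 26.5 to 26.8 CPM in WT. The *vsra-1* value, 9.31 to 11.7 CPM in *vsra-1(tm1637)* against 11.6 to 14.8 CPM in WT, is a whole-gene estimate that does not separate the deleted part. In *vsra-1(tm1637); pals-22(pig26)* it was 212 to 304 CPM, against 113 to 157 CPM in *pals-22(pig26)* of the same background. The *vsra-1* mRNA level therefore does not check the loss of *vsra-1* in these strains. Markers of muscle, intestine, hypodermis, neurons, pharynx and germ line were detected in every mRNA library, apart from 1 hypodermis gene at 0 in 1 *vsra-1(tm1637)* library. In whole worms, fewer cells of a type and less RNA per cell cannot be told apart.

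Within the genome, 5 of the 8 genes lie on chromosome I, 2 on chromosome IV and 1 on chromosome V (WBcel235). *rrf-1* (WBGene00004508, I:7643431-7649777, minus strand) and *ego-1* (WBGene00001214, I:7650341-7656338, minus strand) are neighbours on the same strand, with 563 bases between them. *drh-3* (WBGene00008400) is at I:7820831-7826378, *ekl-1* (WBGene00009052) at I:7095486-7098400 and *rde-10* (WBGene00021634) at I:3547071-3552005, all on the plus strand. *rde-11* (WBGene00023421) is at IV:13105200-13106927 on the plus strand, *rsd-2* (WBGene00004681) at IV:13521970-13540265 on the minus strand and *rde-12* (WBGene00010280) at V:13665389-13669292 on the plus strand. Of exon bases, only *rde-10* overlaps another gene, sharing 57 of its 2097 bases with Y47G6A.21 on the opposite strand.

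Sequence shared with other genes was small for all 8. *rrf-1* and *ego-1* share 85 words of 31 bases, 1.70% of those in *rrf-1* and 1.62% of those in *ego-1*. *ekl-1* shares 80 words, 3.79% of its own, with F22D6.8 and F31E3.6, and the other members share none. In N2, F22D6.8 had 13, 12.3 and 11.5 CPM in *pals-22(pig26)*, against 9.81 and 10.3 CPM in WT, and F31E3.6 had 128, 148 and 140 CPM in *pals-22(pig26)*, against 116 and 136 CPM in WT. Neither gene differed between these N2 groups by as large a factor as *ekl-1* did.

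The mRNA levels of the 8 genes differed widely in L1 worms, with *rde-12* at the top and *ego-1* at the bottom. The mRNA values were scaled to transcript length by the authors, so CPM can be compared between genes. In N2 *pals-22(pig26)* the means were 118 ± 14.98 CPM for *rde-12*, 89.7 ± 3.58 for *ekl-1*, 29.9 ± 2.55 for *rsd-2*, 20.9 ± 1.88 for *rrf-1*, 17.1 ± 0.849 for *drh-3*, 12.4 ± 0.319 for *rde-10*, 11.2 ± 0.875 for *rde-11* and 0.537 ± 0.0816 for *ego-1* (SD, n = 3). In N2 WT they were 73.4 ± 8.11 CPM for *rde-12*, 22.6 ± 0.615 for *rsd-2*, 14.9 ± 0.396 for *rde-10*, 12.3 ± 0.502 for *rde-11*, 12.1 ± 0.431 for *ekl-1*, 11.6 ± 1.37 for *rrf-1*, 6.87 ± 0.117 for *drh-3* and 0.599 ± 0.123 for *ego-1* (SD, n = 2). *ekl-1* was thus second in *pals-22(pig26)* and lay in WT between *rde-11* and *rrf-1*, whose WT ranges overlapped with its own. The somatic polymerase gene *rrf-1* stood far above the germline gene *ego-1* in every library. The *ego-1* values were only 15 to 60 per N2 library and 5 to 28 per *otIs356* library. They are estimated counts scaled to transcript length and not numbers of reads. *ekl-1* varied most among the N2 libraries, its highest value being 7.94 times its lowest, followed by *drh-3* at 2.88 times and *rrf-1* at 2.78 times, while *rde-11* varied least, at 1.31 times.

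**Figure D1:**
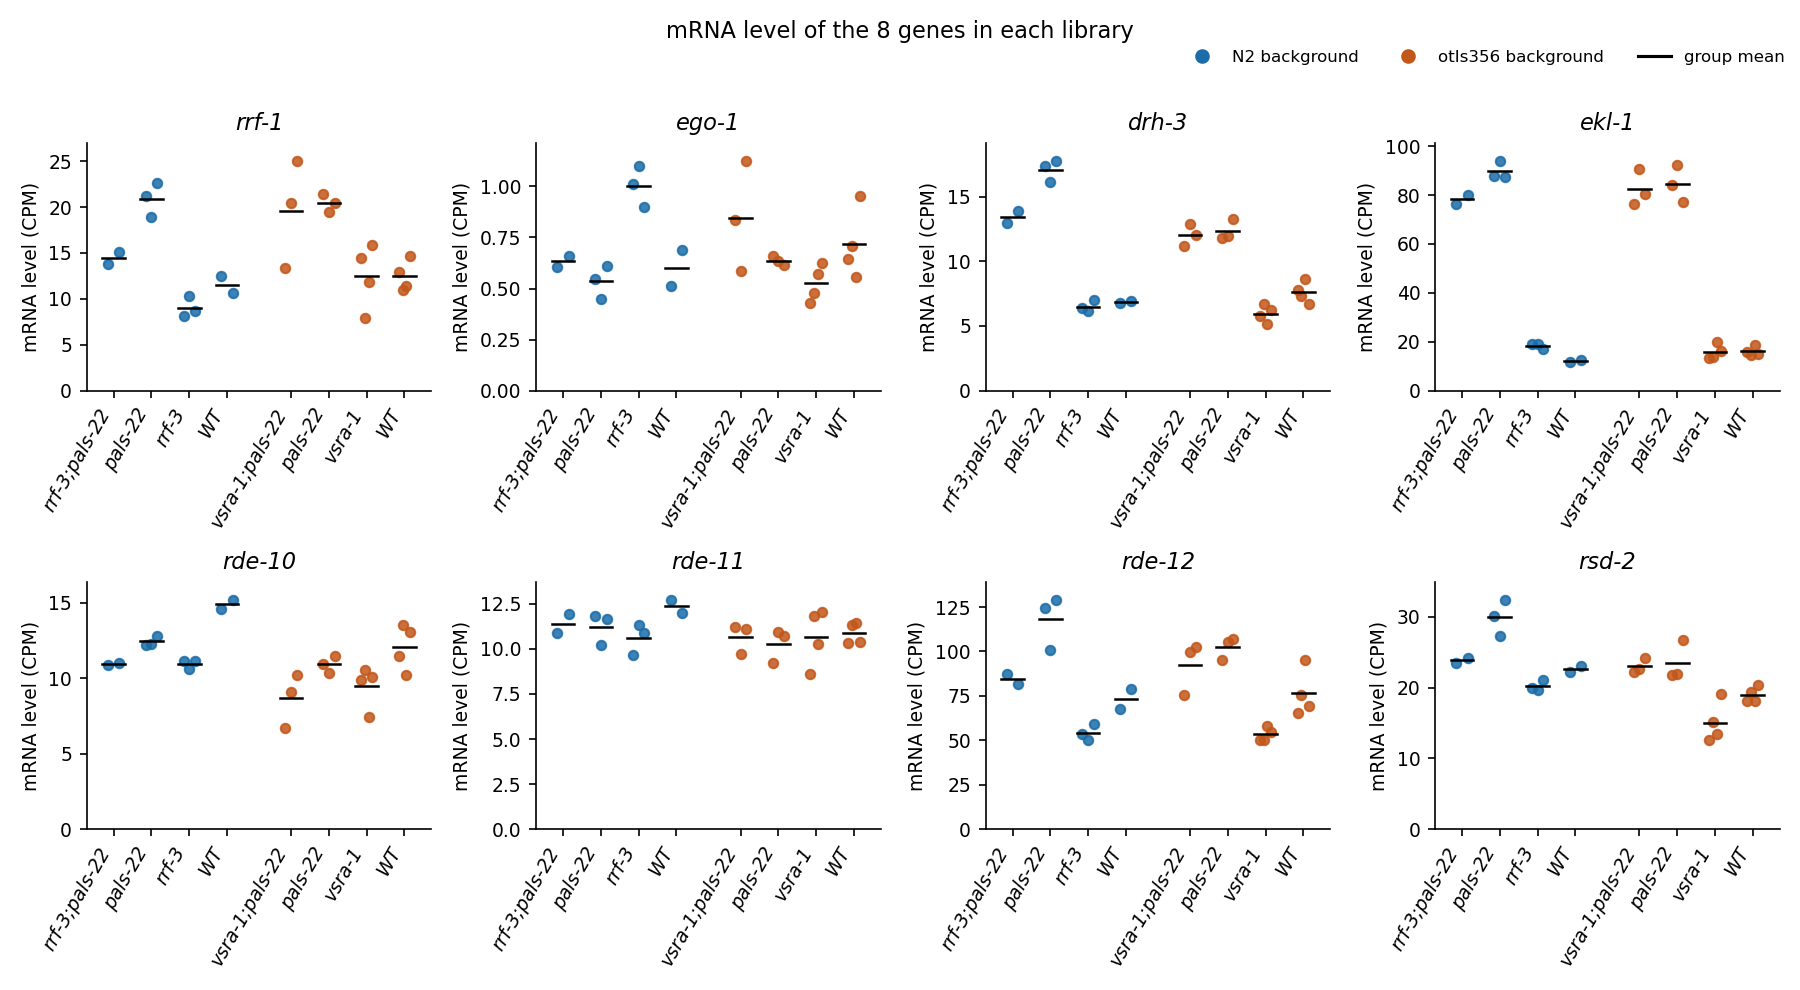
mRNA level of each of the 8 genes, in CPM with TMM scaling (y axis, from 0), in each library (points) of the N2 (blue) and *otIs356* (orange) backgrounds, with the group mean as a black line. *ekl-1* lies between 76.4 and 93.8 CPM in all 11 libraries that carry *pals-22(pig26)* and between 11.8 and 19.96 CPM in all others.

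Without functional PALS-22 in N2, the RdRP complex genes were expressed more highly, and *ekl-1* changed by far the most of the 8. *ekl-1* mRNA was 7.40-fold higher in *pals-22(pig26)* than in WT, *drh-3* 2.49-fold, *rrf-1* 1.81-fold, *rde-12* 1.61-fold and *rsd-2* 1.32-fold higher. *rde-10* was lower, at 0.835 of the WT level. The germline polymerase gene *ego-1* and *rde-11* did not pass the test. In all, 5 of the 8 genes were called higher, where 23.3% of the 18986 genes tested were called higher. Of the 8, 1 was called lower, where 27.8% of all genes were. The paper already reports these 5 genes as higher in *pals-22(pig26)*, and the 8 were chosen with earlier results of these data known. The count and the median of the 8 are therefore a description and not independent support. A gene was called at an adjusted p under 0.1 in edgeR's quasi-likelihood test, adjusted by Benjamini-Hochberg across every gene tested. The median log2 fold change of the 8 was 0.54, beside -0.02 over all genes tested.

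The values by library show how far the groups were apart. *ekl-1*, the Tudor domain partner, had 87.8, 93.8 and 87.5 CPM in *pals-22(pig26)*, against 11.8 and 12.4 CPM in WT. Its log2 fold change was 2.89 ± 0.0813 (SE; n = 3 and 2; edgeR adjusted p = 3.92e-08), and leaving out any 1 library kept it between 2.85 and 2.92. *drh-3*, the helicase, had 17.4, 16.1 and 17.8 CPM in *pals-22(pig26)*, against 6.79 and 6.95 CPM in WT. Its log2 fold change was 1.32 ± 0.0887 (edgeR adjusted p = 1.18e-05). For both genes the gap between the groups was many times the spread within either.

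*rrf-1*, the polymerase itself, had 21.2, 18.9 and 22.6 CPM in *pals-22(pig26)*, against 12.5 and 10.6 CPM in WT, a log2 fold change of 0.86 ± 0.130 (edgeR adjusted p = 0.00127). Every mutant library lay above both WT libraries, but the WT libraries differed by more than those of *drh-3* or *ekl-1* did. *rde-12*, the DEAD-box helicase, had 124, 101 and 129 CPM in *pals-22(pig26)*, against 67.7 and 79.1 CPM in WT, a log2 fold change of 0.69 ± 0.125 (edgeR adjusted p = 0.0032). *rsd-2* had 30.1, 27.2 and 32.3 CPM in *pals-22(pig26)*, against 22.2 and 23.1 CPM in WT, a log2 fold change of 0.40 ± 0.0798 (edgeR adjusted p = 0.00493). For *rde-12* and *rsd-2* as well the groups did not overlap.

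Within the RDE-10 and RDE-11 complex the picture was different. *rde-10* had 12.2, 12.3 and 12.8 CPM in *pals-22(pig26)*, against 14.6 and 15.2 CPM in WT, a log2 fold change of -0.26 ± 0.0653 (edgeR adjusted p = 0.0139), which was -0.074 (adjusted p = 0.586) when libraries were scaled by their totals alone. *rde-11*, its partner, had 11.8, 10.2 and 11.7 CPM in *pals-22(pig26)*, against 12.7 and 11.99 CPM in WT, with a 95% interval of -0.33 to 0.06 for the log2 difference. Neither gene was higher in *pals-22(pig26)*. *ego-1* had 0.549, 0.450 and 0.612 CPM in *pals-22(pig26)*, against 0.512 and 0.686 CPM in WT, and the 95% interval of its log2 difference, -0.69 to 0.38, covers changes in either direction.

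Summed marker levels also differed between these groups, with overlap for the germ line and maternal markers and for muscle. The 3 hypodermis markers together had 43.5 to 57.3 CPM in *pals-22(pig26)* and 8.14 to 25.9 CPM in WT, the 3 intestine markers 778 to 878.2 CPM in *pals-22(pig26)* and 1016 to 1041 CPM in WT, the 3 pharynx markers 53.6 to 79.5 CPM in *pals-22(pig26)* and 38.3 to 46.7 CPM in WT, and the 13 germ line and maternal markers 36.8 to 59.6 CPM in *pals-22(pig26)* and 11.8 to 38.3 CPM in WT. Muscle sums were 889 to 1514 CPM in *pals-22(pig26)* and 1375 to 2108 CPM in WT, and neuron sums 488 to 515 CPM in *pals-22(pig26)* and 519 to 557 CPM in WT. Their part in the member differences was not tested. No marker of these lists was at 0 in any N2 mRNA library.

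In the *otIs356* background the same comparison called *ekl-1* and *drh-3* again, the difference of *drh-3* being smaller than in N2. *ekl-1* mRNA was 5.26-fold and *drh-3* mRNA 1.62-fold higher in *pals-22(pig26)* than in WT, and these 2 of the 8 genes were called higher, where 5.78% of the 16724 genes tested were. None of the 8 was called lower. The members' median log2 fold change was 0.36, beside -0.01 over all genes tested. The other 6 did not pass the threshold in the main fit. *rrf-1* came closest to it, and its 1.63-fold difference was about that of *drh-3*. With the replicate number as a block, *rrf-1*, *rde-12* and *rsd-2* passed as well, but the labels name nothing shared by a number.

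*ekl-1* had 84.3, 92.5 and 77.1 CPM in *pals-22(pig26)*; *otIs356*, against 15.9, 14.7, 18.8 and 15.2 CPM in *otIs356* WT (log2 fold change 2.39 ± 0.159, SE; edgeR adjusted p = 1.55e-06). *drh-3* had 11.8, 11.9 and 13.3 CPM in *pals-22(pig26)*, against 7.81, 7.33, 8.64 and 6.72 CPM in WT (log2 fold change 0.70 ± 0.151; edgeR adjusted p = 0.0176). Neither gene overlapped between the groups. F31E3.6, which shares words with *ekl-1*, had 129, 120 and 197 CPM in *pals-22(pig26)*, against 52.9, 70.3, 56.9 and 58.5 CPM in WT, and how far shared reads enter the *ekl-1* value was not tested.

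*rrf-1* had 21.4, 19.4 and 20.5 CPM in *pals-22(pig26)*, against 12.9, 10.99, 11.4 and 14.7 CPM in WT. All 3 mutant libraries lay above all 4 WT libraries, and the log2 fold change of 0.71 ± 0.240 had an edgeR adjusted p of 0.101, just past the threshold. It was 0.0376 with DESeq2 and 0.0252 when only the compared groups were fitted, and 0.107 with library totals. Without any 1 library it ran from 0.0515, without WT replicate 4, to 0.243, without *pals-22(pig26)* replicate 1. *rde-12* had 95.2, 106 and 107 CPM in *pals-22(pig26)*, against 65.4, 75.6, 95.2 and 69.5 CPM in WT, where replicate 3 reached the lowest mutant value. Its log2 fold change was 0.43 ± 0.157 (edgeR adjusted p = 0.119), and 0.55 (adjusted p = 0.0695) without that WT library. *rsd-2* had 21.7, 21.96 and 26.7 CPM in *pals-22(pig26)*, against 18.1, 19.4, 18.03 and 20.4 CPM in WT, a log2 fold change of 0.30 ± 0.152 (edgeR adjusted p = 0.212). *ego-1*, *rde-10* and *rde-11* overlapped between the groups. For example, *rde-10* had 10.9, 10.3 and 11.5 CPM in *pals-22(pig26)*, against 11.4, 13.5, 10.2 and 13.04 CPM in WT.

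Here too marker sums differed. Muscle markers summed to 1401 to 1757 CPM in *pals-22(pig26)* and 3124 to 4220 CPM in WT, neuron markers to 699.5 to 719.8 CPM in *pals-22(pig26)* and 742 to 1004 CPM in WT, and adult intestine markers to 3.50 to 6.77 CPM in *pals-22(pig26)* and 11.7 to 22.3 CPM in WT. With overlap, hypodermis markers summed to 121 to 280 CPM in *pals-22(pig26)* and 20.3 to 214 CPM in WT, and germ line and maternal markers to 81.9 to 103.98 CPM in *pals-22(pig26)* and 57.3 to 87.3 CPM in WT. Their part in these values was not tested.

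**Figure D2:**
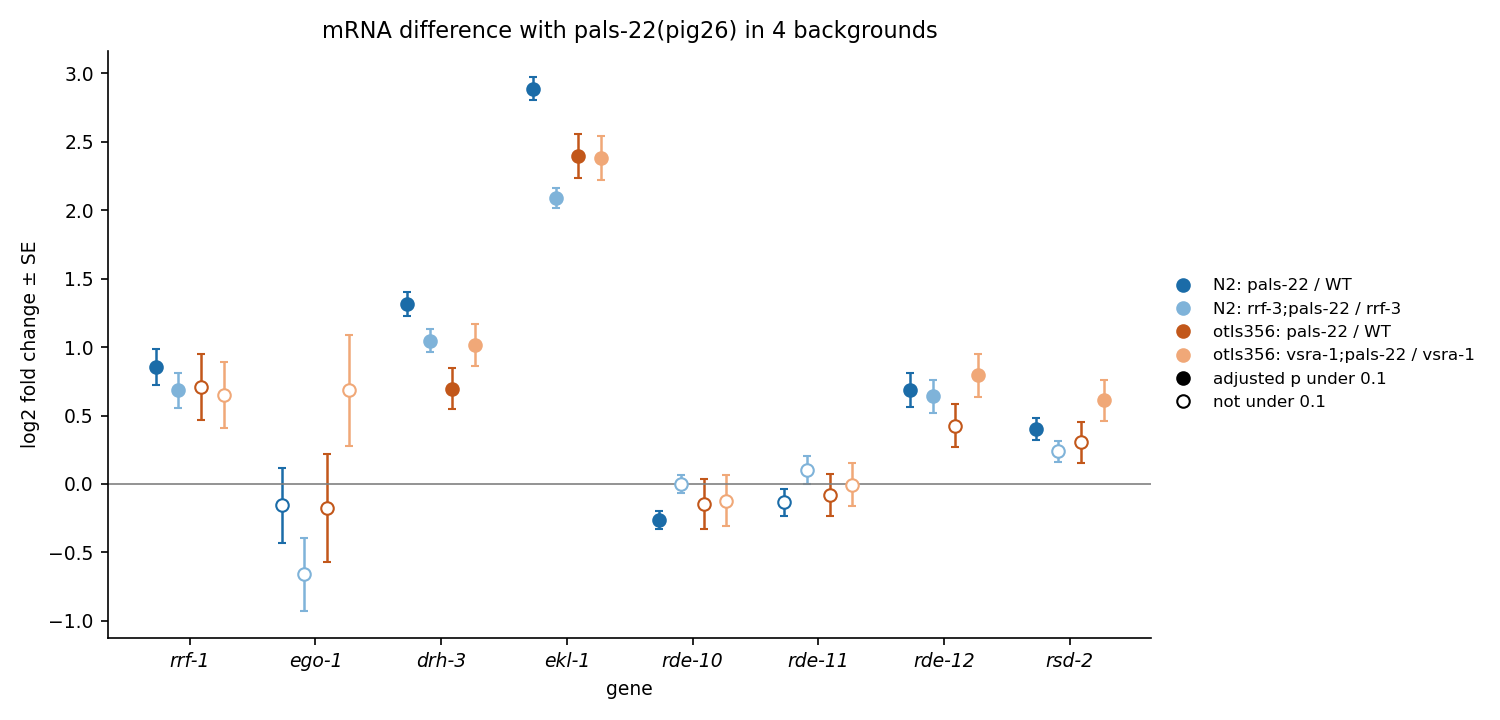
log2 fold change of mRNA (y axis, with SE bars) of each of the 8 genes (x axis) in 4 comparisons that differ by *pals-22(pig26)*, in N2 and *otIs356*, filled where the edgeR adjusted p is under 0.1. *ekl-1* ranges from 2.09 to 2.89 and *drh-3* from 0.70 to 1.32, and both are filled in all 4. All fold changes use TMM scaling.

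Loss of the primary siRNA polymerase RRF-3 alone went with modest differences, most of them downward with TMM scaling. *ekl-1* was 1.52-fold and *ego-1* 1.67-fold higher in *rrf-3(pk1426)* than in N2 WT, while *rrf-1*, *rde-10*, *rde-11*, *rde-12* and *rsd-2* were lower, at 0.735 to 0.891 of the WT level. 2 of the 8 were called higher, where 31.9% of all 18986 genes were, and 5 lower, where 35.8% of all genes were, so most genes of the table were called in this comparison. The 7 calls fell to 3 without WT replicate 1, 4 without WT replicate 2 and 4 without *rrf-3(pk1426)* replicate 1. The lower calls depend on the scaling. With TMM scaling *rrf-1*, *rde-10*, *rde-11*, *rde-12* and *rsd-2* were lower, and with library totals alone all 5 log2 fold changes were above 0 and *rsd-2* and *drh-3* were called higher.

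*ekl-1* had 19.0, 19.1 and 17.1 CPM in *rrf-3(pk1426)*, against 11.8 and 12.4 CPM in WT, a log2 fold change of 0.60 ± 0.0747 (SE; n = 3 and 2; edgeR adjusted p = 1.9e-04). The groups of *ekl-1* were apart under both scalings, with 21.5, 24.1 and 18.5 RPM (counts per 1000000 of the library total alone) in *rrf-3(pk1426)*, against 9.91 and 10.4 RPM in WT. *ego-1* had 1.01, 1.10 and 0.897 CPM in *rrf-3(pk1426)*, against 0.512 and 0.686 CPM in WT, a log2 fold change of 0.74 ± 0.272 (edgeR adjusted p = 0.042). Its groups were also apart under both scalings, but the call for this low gene was lost without WT replicate 1 (log2 fold change 0.54, adjusted p = 0.227).

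*rde-10* had 11.1, 10.6 and 11.1 CPM in *rrf-3(pk1426)*, against 14.6 and 15.2 CPM in WT, a log2 fold change of -0.44 ± 0.0649 (edgeR adjusted p = 4.55e-04), but 12.6, 13.3 and 12.04 RPM in *rrf-3(pk1426)*, against 12.3 and 12.7 RPM in WT. *rde-12* had 53.3, 50.4 and 59.1 CPM in *rrf-3(pk1426)*, against 67.7 and 79.1 CPM in WT, a log2 fold change of -0.44 ± 0.122 (edgeR adjusted p = 0.0132), but 60.2, 63.6 and 64.0 RPM in *rrf-3(pk1426)*, against 56.8 and 66.3 RPM in WT. On the RPM scale neither gene separated the groups. *rrf-1* had 8.13, 10.3 and 8.67 CPM in *rrf-3(pk1426)*, against 12.5 and 10.6 CPM in WT (log2 fold change -0.36 ± 0.127, edgeR adjusted p = 0.037; 0.11 with library totals). *rde-11* had a log2 fold change of -0.22 ± 0.1002 (edgeR adjusted p = 0.0911) and *rsd-2* of -0.17 ± 0.0788 (edgeR adjusted p = 0.0977), against 0.25 and 0.30 with library totals. *drh-3* had 6.36, 6.16 and 6.997 CPM in *rrf-3(pk1426)*, against 6.79 and 6.95 CPM in WT, and was not called with TMM.

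The median of all genes also moved with the scaling, and its part in the member calls was not tested. With library totals alone, the median log2 fold change over all genes tested was 0.43 for *rrf-3(pk1426)* against WT in N2, 0.16 for *pals-22(pig26)* against WT in N2, -0.17 for *rrf-3(pk1426); pals-22(pig26)* against *rrf-3(pk1426)*, -0.33 for the interaction of these alleles, 0.24 for *pals-22(pig26)* against WT in *otIs356* and 0.33 for *vsra-1(tm1637); pals-22(pig26)* against *vsra-1(tm1637)*. For sRNA it was 0.35 for *pals-22(pig26)* against WT in N2, 0.18 for *vsra-1(tm1637)* against WT and 0.11 for *vsra-1(tm1637); pals-22(pig26)* against *pals-22(pig26)* in *otIs356*. Fold changes in the text are relative to the TMM centre unless library totals are named.

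Several marker lists also stood apart in *rrf-3(pk1426)*. Germ line and maternal markers summed to 60.4 to 63.0 CPM in *rrf-3(pk1426)* and 11.8 to 38.3 CPM in WT, intestine markers to 461 to 678 CPM in *rrf-3(pk1426)* and 1016 to 1041 CPM in WT, and muscle markers to 666 to 944 CPM in *rrf-3(pk1426)* and 1375 to 2108 CPM in WT. Pharynx markers summed to 91.3 to 108 CPM in *rrf-3(pk1426)* and 38.3 to 46.7 CPM in WT, and hypodermis markers to 26.7 to 44.6 CPM in *rrf-3(pk1426)* and 8.14 to 25.9 CPM in WT. Their part in the member values, that of the germline gene *ego-1* included, was not tested.

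**Figure D3:**
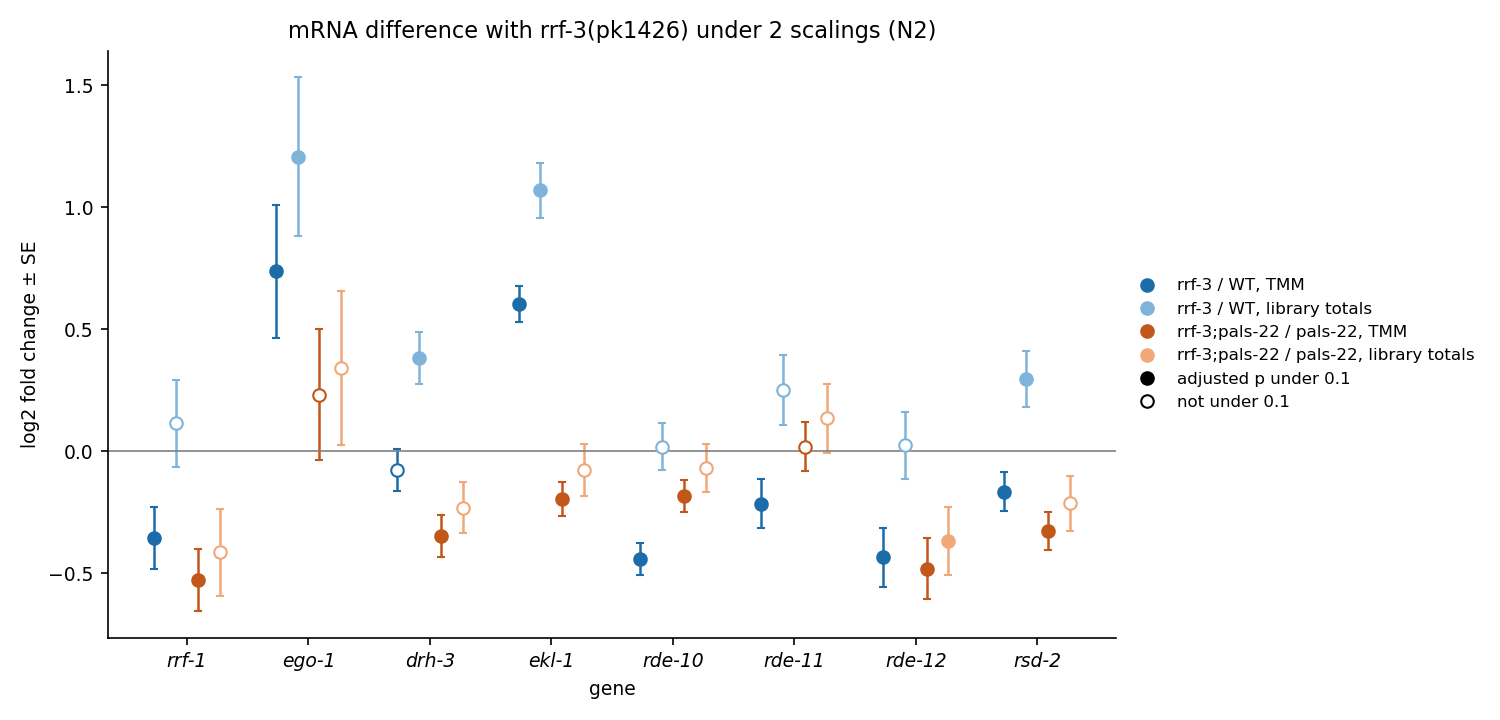
log2 fold change of mRNA (y axis, with SE bars) of each of the 8 genes (x axis) in *rrf-3(pk1426)* against WT and in *rrf-3(pk1426); pals-22(pig26)* against *pals-22(pig26)*, with TMM scaling and with library totals alone, filled where the edgeR adjusted p is under 0.1. For *rrf-3(pk1426)* against WT, *ekl-1* and *ego-1* are above 0 under both scalings, and the other 6 are below 0 with TMM and above 0 with library totals.

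With *rrf-3* already mutated, *pals-22(pig26)* still went with higher *ekl-1*, *drh-3*, *rrf-1* and *rde-12* mRNA. In *rrf-3(pk1426); pals-22(pig26)* against *rrf-3(pk1426)*, *ekl-1* was 4.26-fold, *drh-3* 2.07-fold, *rrf-1* 1.61-fold and *rde-12* 1.56-fold higher. These 4 of the 8 were called higher, where 5.25% of all 18986 genes were, and none of the 8 was called lower. *rsd-2*, called in the N2 comparison with WT, had 23.4 and 24.2 CPM in the double mutant, against 19.9, 19.6 and 21.0 CPM in *rrf-3(pk1426)*, and was not called.

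*ekl-1* had 76.4 and 80.1 CPM in *rrf-3(pk1426); pals-22(pig26)*, against 19.0, 19.1 and 17.1 CPM in *rrf-3(pk1426)* (log2 fold change 2.09 ± 0.0710, SE; edgeR adjusted p = 1.7e-07). *drh-3* had 12.99 and 13.9 CPM in the double mutant, against 6.36, 6.16 and 6.997 CPM in *rrf-3(pk1426)* (log2 fold change 1.05 ± 0.0834; edgeR adjusted p = 6.15e-05). Neither overlapped between the groups, and both were called without any 1 of the 5 libraries. *rrf-1* had 13.8 and 15.1 CPM in the double mutant, against 8.13, 10.3 and 8.67 CPM in *rrf-3(pk1426)* (log2 fold change 0.68 ± 0.125; edgeR adjusted p = 0.014), and with library totals 0.51 (adjusted p = 0.149). *rde-12* had 87.2 and 82.0 CPM in the double mutant, against 53.3, 50.4 and 59.1 CPM in *rrf-3(pk1426)* (log2 fold change 0.64 ± 0.121; edgeR adjusted p = 0.0165), and its adjusted p was 0.103 without double mutant replicate 1. Intestine markers summed to 737 to 764 CPM in the double mutant and 461 to 678 CPM in *rrf-3(pk1426)*. Pharynx markers summed to 71.1 to 83.0 CPM in the double mutant and 91.3 to 108 CPM in *rrf-3(pk1426)*. Adult intestine markers summed to 4.41 to 55.3 CPM in the double mutant and 1.30 to 2.12 CPM in *rrf-3(pk1426)*. The part of these markers was not tested.

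An interaction term tested whether *pals-22(pig26)* went with a different fold change in the 2 genetic settings. It was called for 2 of the 8, where 37.1% of all genes were called in either direction, so the share is below that of the whole table. For *ekl-1* the interaction was -0.80 ± 0.103 on the log2 scale (edgeR adjusted p = 0.00191), the 4.26-fold difference in *rrf-3(pk1426)* worms being smaller than the 7.40-fold difference in worms with intact *rrf-3*. For *rde-10* it was 0.26 ± 0.0925 (edgeR adjusted p = 0.0697), which turned to -0.087 with library totals. The 2 calls thus differ in how they hold, that of *ekl-1* having stayed under the threshold without any 1 of the 10 libraries. *rde-10* lost its call without any 1 of 8 libraries, with adjusted p values from 0.104 to 0.202.

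Compared with *pals-22(pig26)*, the double mutant *rrf-3(pk1426); pals-22(pig26)* had modestly lower mRNA of 6 members, where 17.0% of all genes were called lower. *rrf-1* had 13.8 and 15.1 CPM in the double mutant, against 21.2, 18.9 and 22.6 CPM in *pals-22(pig26)*, a log2 fold change of -0.53 ± 0.127 (edgeR adjusted p = 0.0188). *drh-3* had 12.99 and 13.9 CPM in the double mutant, against 17.4, 16.1 and 17.8 CPM in *pals-22(pig26)*, a log2 fold change of -0.35 ± 0.0844 (edgeR adjusted p = 0.0192). *rde-12* (-0.48 ± 0.124, adjusted p = 0.0236), *rsd-2* (-0.33 ± 0.0793, adjusted p = 0.0189), *ekl-1* (-0.20 ± 0.0712, adjusted p = 0.0751) and *rde-10* (-0.18 ± 0.0659, adjusted p = 0.0718) were called lower by smaller or similar log2 differences in edgeR's test. *ego-1* and *rde-11* were not called. Only *rde-12* stayed called with library totals, and why the other calls were lost was not tested. Without any 1 of the 5 libraries the log2 fold change of *rrf-1* ran from -0.60 to -0.46 and that of *rde-10* from -0.20 to -0.16. The calls did not all hold there, and leaving out a double mutant library leaves only 1 in that group. Marker sums that did not overlap were those of hypodermis, 32.5 to 32.6 CPM in the double mutant and 43.5 to 57.3 CPM in *pals-22(pig26)*, intestine, 737 to 764 CPM in the double mutant and 778 to 878.2 CPM in *pals-22(pig26)*, muscle, 837 to 867 CPM in the double mutant and 889 to 1514 CPM in *pals-22(pig26)*, and neurons, 523 to 574 CPM in the double mutant and 488 to 515 CPM in *pals-22(pig26)*. Their part was not tested.

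In the *otIs356* background, loss of the Argonaute VSRA-1 alone gave no call for any of the 8. edgeR called 0 of the 8 in *vsra-1(tm1637)* against WT, where it called 0.00598% of all 16724 genes. The next counts lack a share over all genes beside them and are not read as a result about the members. Of the 8, 3 had an unadjusted p under 0.05, and DESeq2 called 1. That 1 was *rde-12*, with 50.3, 50.3, 57.9 and 54.9 CPM in *vsra-1(tm1637)*, against 65.4, 75.6, 95.2 and 69.5 CPM in WT. All 4 mutant libraries lay below all 4 WT libraries (log2 fold change -0.52 ± 0.146; edgeR adjusted p = 0.196; with DESeq2 -0.47, adjusted p = 0.0413). *drh-3* had 5.76, 6.72, 5.13 and 6.24 CPM in *vsra-1(tm1637)*, against 7.81, 7.33, 8.64 and 6.72 CPM in WT. *ekl-1* had 13.2, 13.9, 19.96 and 16.3 CPM in *vsra-1(tm1637)*, against 15.9, 14.7, 18.8 and 15.2 CPM in WT, with full overlap of the groups.

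With *vsra-1* mutated, *pals-22(pig26)* went with higher *ekl-1*, *drh-3*, *rde-12* and *rsd-2* mRNA. In *vsra-1(tm1637); pals-22(pig26)* against *vsra-1(tm1637)*, *ekl-1* was 5.20-fold, *drh-3* 2.02-fold, *rde-12* 1.74-fold and *rsd-2* 1.53-fold higher, and these 4 of the 8 were called, where 6.66% of all genes were called higher. *ekl-1* had 76.5, 90.5 and 80.5 CPM in the double mutant, against 13.2, 13.9, 19.96 and 16.3 CPM in *vsra-1(tm1637)* (log2 fold change 2.38 ± 0.160, SE; edgeR adjusted p = 2.48e-06). *drh-3* had 11.2, 12.9 and 12.1 CPM in the double mutant, against 5.76, 6.72, 5.13 and 6.24 CPM in *vsra-1(tm1637)* (log2 fold change 1.02 ± 0.154; edgeR adjusted p = 0.00149). For both genes every double mutant library was far above every *vsra-1(tm1637)* library.

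*rde-12* had 75.4, 99.7 and 102 CPM in the double mutant, against 50.3, 50.3, 57.9 and 54.9 CPM in *vsra-1(tm1637)* (log2 fold change 0.79 ± 0.157; edgeR adjusted p = 0.0105). *rsd-2* had 22.2, 22.7 and 24.1 CPM in the double mutant, against 12.6, 15.1, 13.5 and 19.1 CPM in *vsra-1(tm1637)* (log2 fold change 0.61 ± 0.153; edgeR adjusted p = 0.0348), and its adjusted p was 0.104 without *vsra-1(tm1637)* replicate 1 and 0.128 without double mutant replicate 3. *rrf-1* ranged widely in the double mutant, at 13.4, 20.4 and 25.0 CPM, against 14.4, 7.92, 11.9 and 15.9 CPM in *vsra-1(tm1637)*. The lowest of these double mutant values is from replicate 1, the shallowest library. *rrf-1* was not called with all libraries (log2 fold change 0.65, edgeR adjusted p = 0.131) and was called without that library (0.86, adjusted p = 0.0727). Pharynx markers summed to 92.9 to 160 CPM in the double mutant and 35.6 to 74.2 CPM in *vsra-1(tm1637)*, and their part was not tested.

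Adding *vsra-1(tm1637)* to *pals-22(pig26)* gave no call among the 8, and neither did the interaction of the alleles. In *vsra-1(tm1637); pals-22(pig26)* against *pals-22(pig26)*, edgeR called 0 of the 8, where 0.00598% of all genes were called, 0 had an unadjusted p under 0.05 and DESeq2 called 0. In the interaction edgeR called 0 of the 8, where again 0.00598% of all genes were called, with 0 at an unadjusted p under 0.05 and 0 by DESeq2. The unadjusted and DESeq2 counts lack a share over all genes and are not read as a result about the members. *ekl-1*, for example, had 76.5, 90.5 and 80.5 CPM in the double mutant, against 84.3, 92.5 and 77.1 CPM in *pals-22(pig26)*, and *drh-3* had 11.2, 12.9 and 12.1 CPM in the double mutant, against 11.8, 11.9 and 13.3 CPM in *pals-22(pig26)*.

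Antisense sRNAs were counted against all 8 genes in every library. Per kilobase of transcript, the median antisense sRNA level over the 6 N2 libraries was 53.96 CPM for *rde-11*, 19.1 for *rde-12*, 15.98 for *ego-1*, 12.3 for *drh-3*, 11.4 for *ekl-1*, 10.7 for *rrf-1*, 4.70 for *rsd-2* and 3.42 for *rde-10*. In *otIs356*, *rde-11* again had the highest value, at 49.1 CPM per kilobase, and *rde-10* the lowest, at 3.43. The order by sRNA is not the order by mRNA, *rde-11* and *rde-10* having close mRNA levels and standing at opposite ends by sRNA. *ego-1*, the gene with the least mRNA, was in the upper part of the sRNA order.

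**Figure D4:**
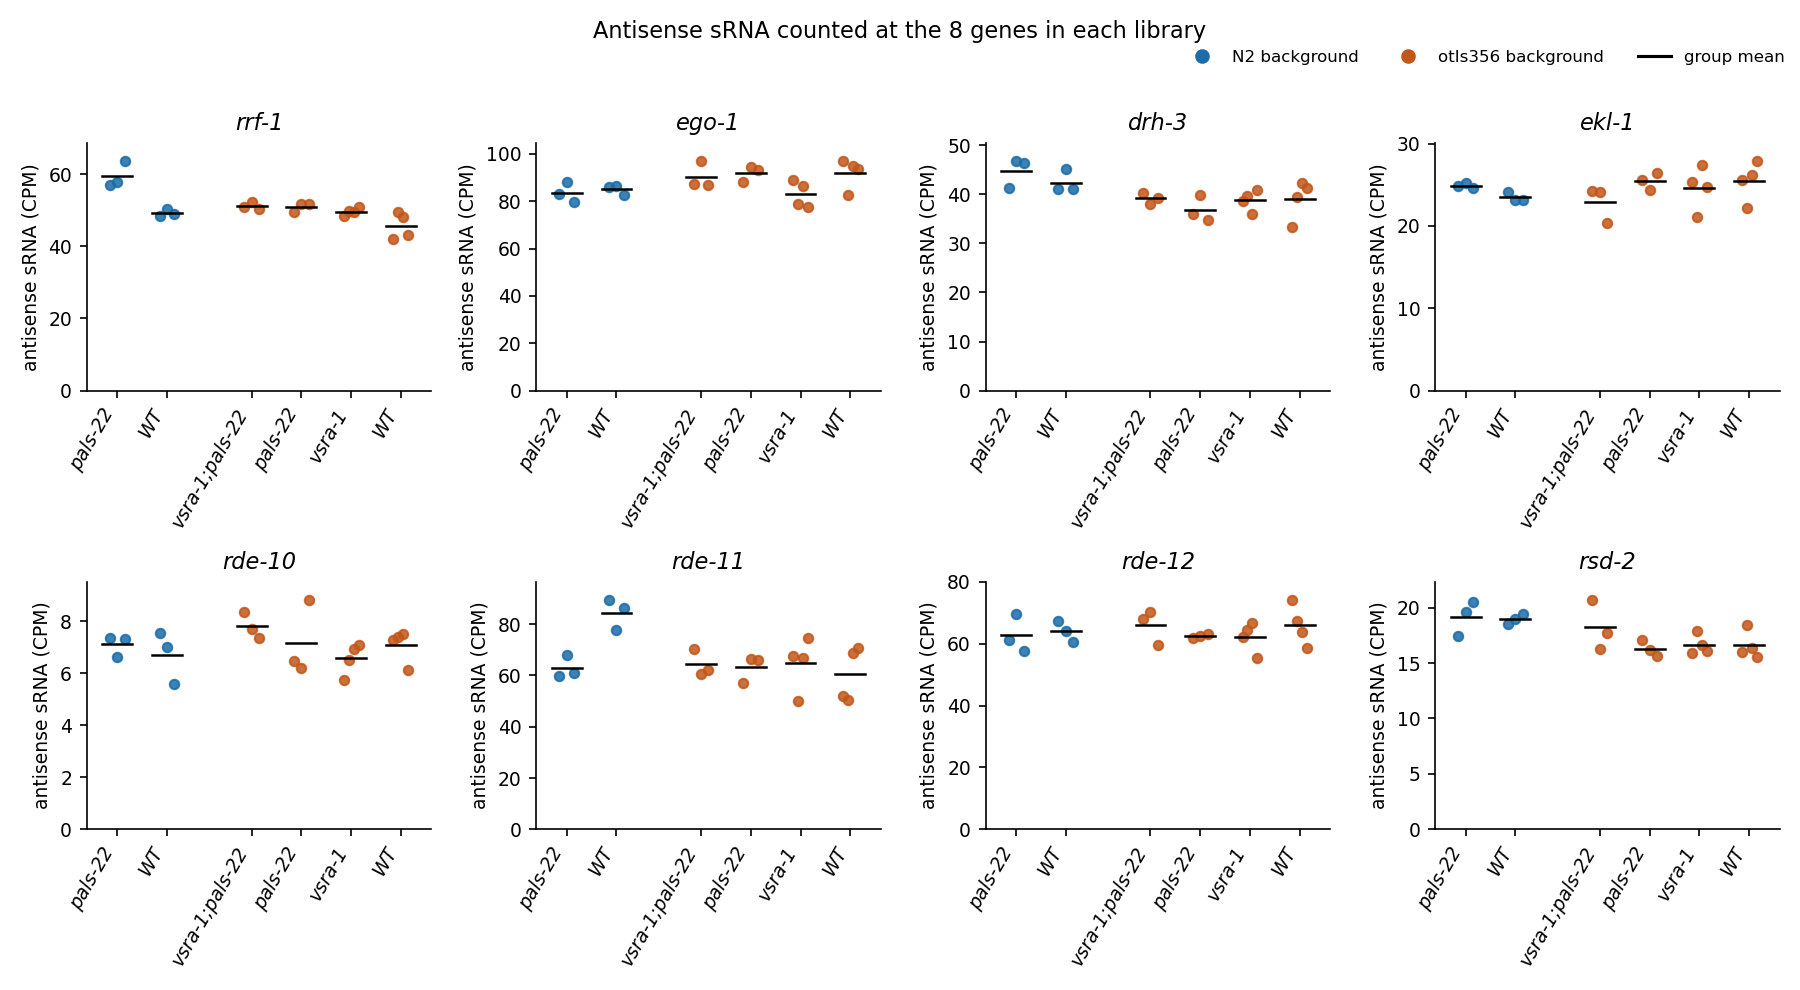
Antisense sRNA level of each of the 8 genes, in CPM with TMM scaling and not per length (y axis, from 0), in each library (points) of the N2 (blue) and *otIs356* (orange) backgrounds, with the group mean as a black line. In N2, *rrf-1* is above WT and *rde-11* below WT in all 3 *pals-22(pig26)* libraries, with overlap for *rde-11* when library totals alone are used, and *ekl-1* sRNA stays within 20.4 to 27.9 CPM in all 20 libraries.

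In N2, the antisense sRNA of *rrf-1* rose and that of *rde-11* fell in *pals-22(pig26)* relative to WT, with TMM scaling. *rrf-1* sRNA had 57.0, 58.0 and 63.6 CPM in *pals-22(pig26)*, against 48.5, 50.3 and 48.9 CPM in WT, a 1.21-fold difference (log2 0.27 ± 0.0675, SE, n = 3 each; edgeR adjusted p = 0.00864). *rde-11* sRNA had 59.9, 67.9 and 61.1 CPM in *pals-22(pig26)*, against 89.4, 77.8 and 86.4 CPM in WT, at 0.742 of the WT level (log2 fold change -0.43 ± 0.0766; edgeR adjusted p = 9.13e-04). Thus 1 of the 8 was called higher, where 18.3% of the 7243 genes tested were, and 1 lower, where 20.8% were, and these shares are near those of the whole table.

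The other 6 were not called on the TMM scale. *ekl-1* sRNA had 24.9, 25.2 and 24.6 CPM in *pals-22(pig26)*, against 24.1, 23.2 and 23.2 CPM in WT (log2 fold change 0.08 ± 0.0730, edgeR adjusted p = 0.43). Its mRNA differed 7.40-fold between these genotypes. *drh-3* sRNA had 41.2, 46.7 and 46.4 CPM in *pals-22(pig26)*, against 41.1, 45.1 and 41.0 CPM in WT. Library totals shifted all of these values. On the RPM scale 7 of the 8 were called higher in *pals-22(pig26)*. *ekl-1*, for example, had 28.1, 28.1 and 28.0 RPM in *pals-22(pig26)*, against 22.04, 19.8 and 20.7 RPM in WT. *rde-11* had 67.5, 75.8 and 69.7 RPM in *pals-22(pig26)*, against 81.8, 66.4 and 77.2 RPM in WT, and was not called. With library totals the median over all genes tested was also above 0, as given above. The RPM count lacks a share over all genes beside it and is not read as a result about the members. *rrf-1* is the member that was called higher under both scalings.

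In *otIs356*, no antisense sRNA difference among the 8 passed the threshold in any comparison. For *pals-22(pig26)* against WT edgeR called 0 of the 8, where 26.3% of the 8042 genes tested were called in either direction. By criteria given without a share over all genes, and so not read as a result about the members, 1 had an unadjusted p under 0.05 and 1 was called by DESeq2. That 1 was *rrf-1*, with 49.6, 51.8 and 51.7 CPM in *pals-22(pig26)*, against 42.0, 49.5, 48.0 and 43.3 CPM in WT (log2 fold change 0.16 ± 0.0676; edgeR adjusted p = 0.126; DESeq2 adjusted p = 0.0684). Every mutant library lay above every WT library on the TMM scale, by little for the closest pair, and the groups overlapped with library totals. edgeR called the gene without WT replicate 2 (adjusted p = 0.0676) or WT replicate 3 (adjusted p = 0.081), and leaving out any 1 of the other libraries gave adjusted p values up to 0.268. *rde-11*, called lower in N2, had 57.0, 66.6 and 65.9 CPM in *pals-22(pig26)*, against 52.2, 50.5, 68.8 and 70.8 CPM in WT, with overlap of the groups.

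For the Argonaute comparisons the counts were also 0 of the 8 by edgeR, with 0 at an unadjusted p under 0.05 and 0 by DESeq2 in each. All genes tested were called at 4.96% for *vsra-1(tm1637)* against WT, 10% for *vsra-1(tm1637); pals-22(pig26)* against *pals-22(pig26)*, 22.6% for *vsra-1(tm1637); pals-22(pig26)* against *vsra-1(tm1637)* and 8.90% for the interaction. The members' log2 fold changes ran from -0.15 to 0.12, -0.15 to 0.16, -0.11 to 0.25 and -0.11 to 0.26 in the same order. *rrf-1* sRNA lay between 50.4 and 52.3 CPM in the double mutant and between 48.3 and 50.9 CPM in *vsra-1(tm1637)*.

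Other genes of the pathway, taken from lists chosen with earlier results of these data known, were counted for *pals-22(pig26)* against WT, beside the same shares of all genes as above, 23.3% higher and 27.8% lower in N2 and 5.78% higher and 5.10% lower in *otIs356*. Of 10 genes for Argonautes that bind secondary siRNAs, 8 were higher and 1 lower in N2 (median log2 fold change 1.39), with *vsra-1* at 3.87 (edgeR adjusted p = 4.05e-08) and *ppw-1* at 3.61 (edgeR adjusted p = 3.92e-08). In *otIs356*, 5 of these 10 were higher and none lower (median 0.72). Of 4 genes for the recognition of dsRNA, 3 were higher in N2 and 2 in *otIs356*, and none was lower in either. Among these, *drh-1*, a gene for a helicase related to RIG-I, had a log2 fold change of 3.35 in N2 (edgeR adjusted p = 1.43e-08) and 2.58 in *otIs356* (edgeR adjusted p = 1.26e-06), and *rde-1*, the primary Argonaute gene of exogenous RNAi, had 1.69 in N2 (edgeR adjusted p = 4.88e-07) and 1.26 in *otIs356* (edgeR adjusted p = 0.00425).

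Counts for the granule genes that house amplification were mixed. Of 12 genes for mutator and other granule partners, 2 were higher and 5 lower in N2 (median -0.18), and none was higher and 1 lower in *otIs356* (median -0.04). In N2, *mut-14*, a gene for a DEAD-box helicase of mutator foci, had a log2 fold change of -0.80 (edgeR adjusted p = 0.00322) and *nyn-1* one of 0.79 (edgeR adjusted p = 0.0093). In *otIs356*, *mut-15* had -0.66 (edgeR adjusted p = 0.0595) and *mut-14* -0.73, which was not called (edgeR adjusted p = 0.13). The remaining RdRP genes split. *rrf-2* had a log2 fold change of 2.45 ± 0.218 in N2 (edgeR adjusted p = 6.49e-05) and 2.74 in *otIs356* (edgeR adjusted p = 8.65e-06), and *rrf-3* was not called in either (edgeR adjusted p = 0.114 and 0.179).

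The same lists were counted for antisense sRNA in *pals-22(pig26)* against WT, where 18.3% of all genes were called higher and 20.8% lower in N2, and 11.7% higher and 14.6% lower in *otIs356*. Of the mutator and granule genes, 0 of 12 were called in N2 and 2 in *otIs356*, both lower. Of the 9 secondary Argonaute genes tested, 2 were higher in N2, *sago-2* at a log2 fold change of 0.48 (edgeR adjusted p = 0.00157) and *ppw-1* at 0.24 (edgeR adjusted p = 0.0221), and 2 were lower in *otIs356*. The dsRNA recognition genes and the other RdRPs had 0 calls in N2 and 1 each, both higher, in *otIs356*.

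Likeness of pattern was described by Pearson r of log2 CPM over the 10 N2 and the 14 *otIs356* mRNA libraries, taking for each member the genes with the highest value of the smaller r among 16618 genes. The libraries share genotype and depth, so these values describe shared level patterns only. *drh-3* was most like *rde-1* (r = 0.98 in N2 and 0.98 in *otIs356*) and T10H4.4 (0.98 and 0.98). *ekl-1* was most like *chil-3* (1.00 and 0.99) and C44H9.4 (0.99 and 0.99). The r values were high for these genes, whose levels split by *pals-22* genotype, and also for *rsd-2* with *cand-1* (0.97 and 0.95) and *rde-12* with *cmtr-1* (0.96 and 0.94). *rrf-1* was most like F55G1.6 (0.86 and 0.88), *ego-1* most like *rpc-1* (0.87 and 0.93) and *rde-10* most like *dsh-1* (0.97 and 0.92). *rde-11*, the member that varied least in N2, had the lowest values, 0.73 and 0.66 with *rcat-1*.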

How the data were processed

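mRNA and sRNA were measured in 44 libraries. The deposited mRNA values are estimated counts that the authors made with kallisto, run through RNAlysis, and summed and scaled per gene. Multiplying low values by transcript length brought 60.8% to 67.0% in N2 and 61.7% to 68.2% in *otIs356* within 0.1 of a whole number, where 20% would be by chance, so mRNA CPM are per length. The deposited sRNA values are read counts per gene, which the authors made with CutAdapt, ShortStack (ce11 genome) and featureCounts. Over 30 miRNA genes with a gene opposite, miRNA genes held 8.82 RPM in N2 and 9.26 RPM in *otIs356*, against 375500 and 381400 RPM on the opposite genes, so sRNA counts are antisense reads.

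Estimated counts were rounded to whole numbers. The libraries of each table entered 1 fit, grouped by genotype, in R 4.3.3 with edgeR 4.0.16 (TMM, glmQLFit and glmQLFTest, two-sided, Benjamini-Hochberg over all genes, called at an adjusted p under 0.1). filterByExpr (minimum count 10, minimum total 15) kept 18986 N2 and 16724 *otIs356* genes for mRNA, and a minimum of 5 RPM in at least 1 library kept 7243 and 8042 for sRNA. For sRNA, a count of 0 allows up to 3 counts, at most 0.261 RPM in N2 and 0.377 RPM in *otIs356*, for counting error only. The mRNA values are not numbers of reads, so no such limit is given for them. Intervals of log2 differences are 95%, from the SE. Positions are from Ensembl (WBcel235). The scripts were tested on simulated data.

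The 8 members and the pathway lists were chosen with earlier results of these data known. All 8 members are named, with fold changes for those called in the main fit or under another setting. For likeness, the rule took the 2 genes with the highest value of the smaller of the N2 and *otIs356* r, of which the text gives 1 or both. Genes of the lists named in the text are from the 2 with the lowest adjusted p in their list and comparison. F22D6.8 and F31E3.6 were named for their shared sequence. The sources do not say whether replicates came from separate cultures, so p values measure the spread between these libraries, which may be technical. The alternatives were library totals alone, RLE size factors, no low-count filter, DESeq2 1.42.0, only the compared groups, the replicate number as a block, and leaving out each library.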

Additional observations from a re-analysis of the deposited data

Results flagged for a closer look

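In the *otIs356* sRNA libraries, WT replicate 4 stood apart from the other WT libraries for *rde-10*, with 6.14 CPM against 7.30, 7.41 and 7.51 CPM, a gap of 0.848 of the range of the 4 values. Among 32 groups of 4 libraries checked, chance alone flags about 1 in 20.

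The *pals-22(pig26)* difference in *ekl-1* mRNA was smaller in *rrf-3(pk1426)* worms than in worms with intact *rrf-3*, with an interaction of -0.80 on the log2 scale (edgeR adjusted p = 0.00191). For *rde-10* mRNA the interaction was 0.26 (edgeR adjusted p = 0.0697), with the sign turned when library totals alone were used.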

How the results depend on the processing

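Counts of the 8 members called moved by over 1.5 times under these settings. For *rrf-3(pk1426)* against WT, 7 became 4 with library totals, where 12182 of 18986 genes were called. The count was also 4 with only the compared groups, where 12624 of 18121 genes were called. It fell as well when libraries were left out, as given above. The other counts under these settings have no share over all genes beside them and are not read as a result about the members. For *rrf-3(pk1426); pals-22(pig26)* against *pals-22(pig26)*, 6 became 1 with library totals and 0 to 5 without any 1 library. The N2 interaction count of 2 became 1 with the replicate block, by title or by library name (*rde-10*, adjusted p = 0.109 and 0.153), and 1 to 2 without any 1 library. In *otIs356*, 2 for *pals-22(pig26)* against WT became 4 with DESeq2 and 5 with the replicate block, which added *rrf-1* (adjusted p = 0.0485), *rde-12* (adjusted p = 0.0575) and *rsd-2* (adjusted p = 0.078), and 0 for *vsra-1(tm1637)* against WT became 1 with DESeq2. For sRNA, 2 in N2 became 7 with library totals, 0 in *otIs356* for *pals-22(pig26)* against WT became 1 with RLE size factors, 1 with DESeq2 and 0 to 1 without any 1 library, and 0 for *vsra-1(tm1637)* against WT became 1 with library totals.

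Signs turned for *rrf-3(pk1426)* against WT with library totals, to 0.11 for *rrf-1*, 0.38 for *drh-3* (adjusted p = 0.0147), 0.019 for *rde-10*, 0.25 for *rde-11*, 0.024 for *rde-12* and 0.30 for *rsd-2* (adjusted p = 0.0512), and *drh-3* ran from -0.13 to 0.050 without any 1 library. The *rde-10* interaction became -0.087 with library totals. For N2 sRNA, library totals gave 0.32 for *ego-1* and 0.32 for *rde-12*, and leaving out any 1 library gave -0.064 to 0.0063 for *ego-1*, -0.10 to 0.027 for *rde-12*, -0.043 to 0.078 for *rsd-2* and -0.043 to 0.20 for *rde-10*. The causes were not tested. Of 410 values for the 33 called member results under other settings, 336 kept direction and call, 68 kept the direction alone and 6 turned sign.

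Same-numbered libraries of different genotypes deviated together (r over 0.1) in 1 of 13 pairs for N2 mRNA, 8 of 19 for *otIs356* mRNA, 1 of 3 for N2 sRNA and 1 of 19 for *otIs356* sRNA. Differently numbered libraries did so in 5 of 24, 18 of 54, 0 of 6 and 8 of 54 pairs in the same order. The labels name nothing shared by a number and not every pair exceeded 0.1, so the block was not taken into the main fit. In *otIs356* mRNA the block gave 5189 calls over all genes for *pals-22(pig26)* against WT, against 1820 without it, and whether the numbers mark a shared preparation there was not tested. The 2 WT and 2 double mutant libraries limit N2 mRNA. Low values, 15 to 60 estimated counts after scaling to length, limit *ego-1* there.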
